A study of Mus musculus with 10 samples.

Results

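Scx, Mkx, Tnmd, Foxc1, Foxc2, Twist1, Twist2, Prrx1 and Prrx2 mark the mesenchyme that builds the connective tissue around the eye and the tendon lineage that attaches muscle to it. These 9 genes were picked by name, by a rule that uses no measured value, and all 9 were found among the 26360 genes listed for the posterior eye wall. Of them 8 encode transcription factors and 1, Tnmd, encodes tenomodulin, a membrane glycoprotein of tendon and ligament cells, so the set is not made of transcription factors alone.

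The tissue was labelled RPE/choroid/sclera, that is, the retinal pigment epithelium (RPE), the vascular choroid and the collagen-rich sclera, although the labels' extraction text speaks of retinae. It came from wild type C57BL/6J mice at postnatal day 34, and total RNA was sequenced in 10 libraries, from the left eye (n = 5) and the right eye (n = 5) of 5 animals, numbered 61, 64, 65, 66 and 68. Every animal had worn a goggle with a -20 D lens, which induces myopia, over 1 eye from postnatal day 24 for 10 days, while the fellow eye had no lens. The labels give the side of each eye and not which side wore the lens, so a right minus left difference has no treatment direction.

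During development, cells of the neural crest and head mesoderm gather around the optic cup and form the sclera, the choroidal stroma, the corneal stroma and the tendons and connective tissue of the eye muscles. The forkhead factors FOXC1 and FOXC2 act in this periocular mesenchyme, and FOXC1 is known for its part in the development of the front of the eye. TWIST1 and TWIST2 are basic helix-loop-helix proteins that bind E-boxes and keep mesenchymal cells from differentiating, PRRX1 and PRRX2 are paired-related homeodomain proteins of mesenchyme, SCX (scleraxis) is the helix-loop-helix factor that marks tendon cells from early stages, and MKX (mohawk) is a homeodomain factor of tendon collagen production. Tnmd is a known target of scleraxis in tendon.

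Some sequences bear on how far the values of related genes can be told apart. The longest identical run between the main Foxc1 and Foxc2 transcripts of GENCODE M21 (GRCm38) was 53 bases, and it was coding sequence in both genes. It is shown with 12 bases to either side, capitals marking the identical run, for Foxc1 at chr13:31807634-31807710 and Foxc2 at chr8:121117020-121117096, both on the plus strand.
Foxc1: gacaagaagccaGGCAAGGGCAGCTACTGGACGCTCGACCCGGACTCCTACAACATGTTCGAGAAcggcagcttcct
Foxc2: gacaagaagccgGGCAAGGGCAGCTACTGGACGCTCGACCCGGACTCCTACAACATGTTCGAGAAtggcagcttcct

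Between Twist1 and Twist2 the longest identical run was 23 bases, again coding in both, at chr12:33958368-33958414 and chr1:91801879-91801925 with the same flanks (plus strand).
Twist1: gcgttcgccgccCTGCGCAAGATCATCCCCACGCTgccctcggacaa
Twist2: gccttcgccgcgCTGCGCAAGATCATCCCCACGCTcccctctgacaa
A read that lies wholly inside such a run could come from either gene, and whether any reads were that short was not examined.

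The stretch before the start site was read from the RefSeq promoter table (GRCm38.p6) for 6 of the 9 members (Tnmd, Foxc1, Twist1, Twist2, Prrx1 and Prrx2). Scx, Mkx and Foxc2 were not read, so the counts below say nothing of them. Among the 250 bases before the start, the E-box word CANNTG, which is its own reverse complement and is read by helix-loop-helix proteins, was in 0 of these 6 and in 66.2% of 32851 promoters in the table. TAATTA, a core word of homeodomain binding that also reads the same on both strands, was in 2 of the 6, Tnmd and Prrx1, and in 4.84% of all promoters. The Prrx2 window, set by the RefSeq start, lies inside the gene as GENCODE M21 draws it, so it says nothing of the bases before that longer model. The TATA word TATAAA on the gene's own strand was in 1 of the 6, Twist1, and in 7.59% of all. The 3 promoters that held such a word are printed up to the first annotated exon base, with these words and every TAATT or AATTA in capitals. In Tnmd a further AATTA stands apart from TAATTA. The stretches are Tnmd at chrX:133850758-133850979 (plus strand), Prrx1 at chr1:163313711-163313900 (minus strand) and Twist1 at chr12:33957421-33957670 (plus strand).
Tnmd: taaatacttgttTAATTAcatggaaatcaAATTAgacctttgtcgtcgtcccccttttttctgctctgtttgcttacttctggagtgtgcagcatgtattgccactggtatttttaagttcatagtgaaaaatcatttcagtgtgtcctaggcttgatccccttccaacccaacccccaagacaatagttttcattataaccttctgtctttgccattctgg
Prrx1: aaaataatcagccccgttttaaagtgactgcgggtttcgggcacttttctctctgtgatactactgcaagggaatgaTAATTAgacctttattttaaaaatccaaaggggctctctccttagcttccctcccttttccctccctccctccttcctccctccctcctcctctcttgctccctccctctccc
Twist1: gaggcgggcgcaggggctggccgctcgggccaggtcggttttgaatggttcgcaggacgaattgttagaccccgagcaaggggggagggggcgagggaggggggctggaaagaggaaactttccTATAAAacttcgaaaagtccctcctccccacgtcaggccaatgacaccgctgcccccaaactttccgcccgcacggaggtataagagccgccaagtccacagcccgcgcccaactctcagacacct
A match or its absence describes these letters in this window only.

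Values were deposited as CPM, read counts scaled to a common library total, and steps between low values implied totals of 66.8 to 94.0 M reads per library. Markers of the labelled tissue were present in all libraries, with 9 RPE genes summing to between 5053 and 6947 CPM and 12 fibroblast and matrix genes of the sclera, led by Col1a2, to between 9784 and 13661 CPM. Transcripts of tissue outside the label varied over wider ranges. The 8 rod photoreceptor genes, all listed and none at 0 throughout, summed to 207 to 868 CPM in left and 125 to 1813 CPM in right eyes, and the 20 skeletal muscle genes, likewise all listed, to 2131 to 9895 CPM in left and 3774 to 7862 CPM in right eyes. The 13 genes of corneal and conjunctival epithelium, all listed and none at 0 throughout, summed to 443 to 1197 CPM in left and 236 to 916 CPM in right eyes. The right eye of animal 68 held the most rod RNA and the left eye of animal 65 the next most (868 CPM). In such bulk samples fewer cells of a type and less RNA per cell cannot be told apart.

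All 9 genes were above 0 in all 10 libraries, and they spanned a wide range of levels. Only per length can genes be compared, so CPM were divided by the length of the annotated exons in kb (± SD over the 10 libraries, which come from 5 animals). Tnmd was far ahead at 38.0 ± 4.02 CPM per kb, followed by Prrx1 at 5.01 ± 0.551, Mkx at 4.26 ± 0.672 and Foxc1 at 3.85 ± 0.599 CPM per kb. Twist1 stood at 2.39 ± 0.467 and Prrx2 at 1.32 ± 0.326 CPM per kb. Foxc2 at 0.812 ± 0.232, Scx at 0.764 ± 0.184 and Twist2 at 0.281 ± 0.0935 CPM per kb closed the order. The ranges over libraries were separate between Tnmd and Prrx1 and between Scx and Twist2, while all other neighbours in the order overlapped. Within a library Foxc1 exceeded Twist1, Twist1 exceeded Prrx2 and Prrx2 exceeded Foxc2 per kb in 10 of 10 libraries, whereas Prrx1 exceeded Mkx in 9, Mkx exceeded Foxc1 in 7 and Foxc2 exceeded Scx in 7. With the longest transcript in place of all exons, Prrx1 stood at 8.50 CPM per kb.

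**Figure D1:**
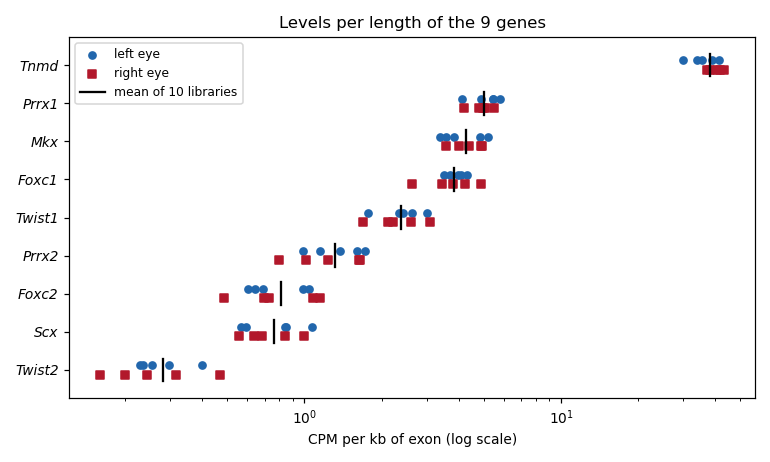
Level of each gene in CPM per kb of annotated exon on a log axis, with a circle for each left-eye and a square for each right-eye library and a line at the mean of the 10 libraries. Tnmd, at 30.0 to 43.2 CPM per kb, lies apart from the 8 transcription factors, and Twist2 lies below all others.

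In each of the 3 pairs of related genes the same gene was the higher in all 10 libraries. Per kb of exon, Foxc1 was 3.90 to 6.76 times Foxc2 (median 4.88), Prrx1 was 2.93 to 5.23 times Prrx2 (median 3.76), and Twist1 was 5.36 to 13.8 times Twist2 (median 9.17). Among the tendon genes Mkx was 3.55 to 9.22 times Scx, and Tnmd was 31.4 to 74.8 times Scx. The Scx gene counts a transcript that keeps its intron among its exons, which lowers its value per kb.

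The tendon genes are taken first. Scx (chromosome 15, 76457452 to 76459458, plus strand, GRCm38) lies whole within an intron of Bop1, a ribosome biogenesis gene on the opposite strand at a mean of 7.52 CPM, and without knowing whether counting used strand the reads of both cannot be told apart there. Its CPM were 1.14, 2.16, 1.19, 1.69 and 1.70 in the left eyes of animals 61, 64, 65, 66 and 68, and 1.69, 1.38, 1.28, 1.998 and 1.11 in the right eyes in the same order. The groups overlapped throughout, with the highest value in the left eye of animal 64 and the lowest in the right eye of animal 68. The coefficient of variation over the 10 libraries was 24.0%, and counting error alone at the implied 83.8 to 175 reads would give 9.28%.

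Mkx (chromosome 18, 6934518 to 7004780), on the minus strand, measured 21.4, 15.7, 14.6, 13.9 and 19.7 CPM in left and 20.2, 14.6, 16.4, 20.04 and 18.0 CPM in right eyes of animals 61, 64, 65, 66 and 68. Both eyes of animal 61 were above 20 CPM, and both eyes of animal 64 were below 16 CPM. Animal 66 held the lowest library in its left eye and the third highest in its right eye, a fellow-eye difference of 0.52 on the log2(CPM + 0.2302) scale on which all differences here are given.

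Tnmd (chromosome X, 133850980 to 133865577, plus strand), the tendon membrane protein, was at 52.5, 45.7, 40.6, 48.0 and 55.8 CPM in left and 51.3, 50.3, 58.4, 54.9 and 56.2 CPM in right eyes of the same animals. It varied least of the 9 genes, with a coefficient of variation of 10.6% beside a median of 11.1% over the genes tested. The lowest and the highest library were the fellow eyes of animal 65. Skeletal muscle RNA, which tendon could accompany, varied over a wider range than Tnmd. The 20 muscle genes summed highest in the left eyes of animals 64 and 68 (9401 and 9895 CPM) and lowest in the left eye of animal 66 (2131 CPM). Tnmd was at 45.7, 55.8 and 48.0 CPM in them. In right eyes the muscle genes summed to 3774 to 7862 CPM and Tnmd was at 50.3 to 58.4 CPM. Whether Tnmd went with muscle RNA was not tested.

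**Figure D2:**
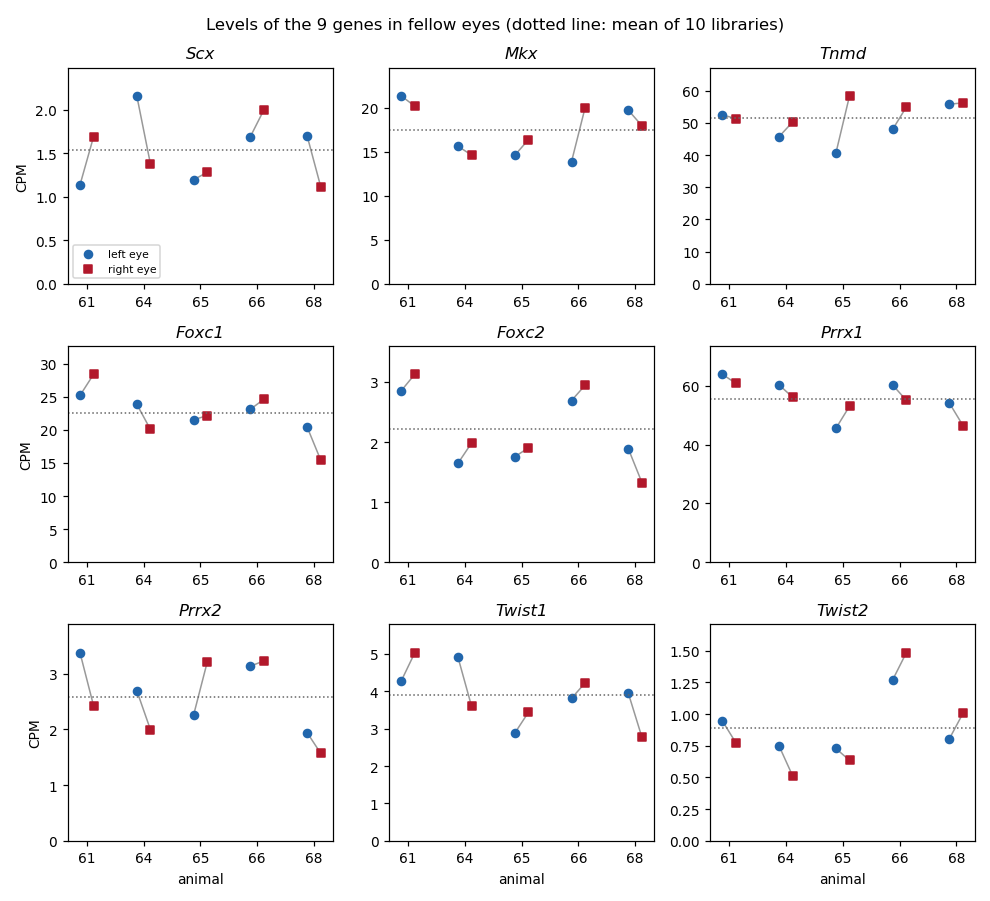
CPM of each gene by animal, circles for left and squares for right eyes, fellow eyes joined by a line and the mean of the 10 libraries dotted, each axis starting at 0. Left and right eyes overlap for all 9 genes; Foxc2 is high in both eyes of animals 61 and 66, Twist2 is high in both eyes of animal 66, and the right eye of animal 68 is the lowest library for 5 genes.

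The forkhead genes followed. Foxc1 (chromosome 13, 31806633 to 31812476, plus strand) was at 25.2, 23.9, 21.5, 23.1 and 20.4 CPM in left and 28.4, 20.1, 22.2, 24.6 and 15.4 CPM in right eyes of animals 61, 64, 65, 66 and 68. The highest values were the pair of animal 61, and the right eye of animal 68 was well below all others. Foxc2 (chromosome 8, 121116171 to 121118895, plus strand), which is needed for lymphatic vessels as well as mesenchyme, was at 2.85, 1.65, 1.76, 2.69 and 1.89 CPM in left and 3.13, 1.98, 1.90, 2.95 and 1.33 CPM in right eyes. All 4 libraries of animals 61 and 66 were at 2.69 CPM or above and the other 6 at 1.98 CPM or below. Foxc2 lies within an intron of the long locus Gm20388 on the same strand (mean 24.6 CPM), and its value is uncertain to that extent.

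Of the homeodomain genes, Prrx1 (chromosome 1, 163245119 to 163313710), on the minus strand, measured 63.9, 60.2, 45.5, 60.2 and 54.0 CPM in left and 60.7, 56.0, 53.0, 55.0 and 46.4 CPM in right eyes of animals 61, 64, 65, 66 and 68. The left eye of animal 65 and the right eye of animal 68 were lowest, and these were the libraries with the most rod RNA. The right eye of animal 64, next in rod RNA (557 CPM), was at 56.0 CPM of Prrx1. The part of rod RNA in the values of Prrx1 was not tested. Prrx2 (chromosome 2, 30834972 to 30881251, plus strand) was at 3.38, 2.70, 2.26, 3.14 and 1.94 CPM in left and 2.42, 1.998, 3.21, 3.23 and 1.57 CPM in right eyes. Both eyes of animal 66 were high and both of animal 68 low for Prrx2, while fellow eyes of animals 61 and 65 differed in opposite directions.

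Of the helix-loop-helix pair, Twist1 (chromosome 12, 33957671 to 33959829, plus strand) was at 4.27, 4.91, 2.88, 3.81 and 3.95 CPM in left and 5.03, 3.60, 3.44, 4.23 and 2.77 CPM in right eyes of animals 61, 64, 65, 66 and 68. The pair of animal 65 and the right eye of animal 68 were low. Twist2 (chromosome 1, 91801461 to 91848028, plus strand) was at 0.946, 0.747, 0.728, 1.27 and 0.807 CPM in left and 0.772, 0.510, 0.634, 1.48 and 1.01 CPM in right eyes. It was highest in both eyes of animal 66. With a mean of 0.891 CPM it was under the minimum mean of 1 CPM set for testing, and it varied most of the 9 genes, with a coefficient of variation of 33.3% against 12.5% from counting error at 36.9 to 130 implied reads. Over 1477 bases of its exons it overlaps Gm29100, a noncoding RNA on the opposite strand at a mean of 0.0912 CPM.

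The comparison of right with left eyes asked whether any of these genes differed by side. It cannot be read as a test of the lens, since the labels do not give the lens side. If that side varied between animals, an effect of the lens would cancel at least in part. If it was the same in all animals, side and lens cannot be told apart. With fellow eyes compared within each animal, limma called 0 of the 8 genes at an adjusted p under 0.05 (adjusted p = 0.9998 for each), and 0 of 15414 genes in all (0%). At an unadjusted p under 0.05 there were 0 of the 8 beside 2.79% of all genes. The 2 groups of eyes overlapped for all 9 genes (groups not overlapping for 0.214% of all tested), and 0 of the 8 moved one way in 5 of 5 animals, as 4.44% of all genes did. On average 5 of the 8 were lower and 3 higher in right eyes, with a median difference of -0.06 beside -0.01 over all genes. The corneal and conjunctival epithelium genes were lower on average in right eyes for 13 of 13 (median -0.88, 0 past the adjusted threshold), and their part in the members' differences was not tested.

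Tnmd had the largest difference of the 8, higher in right eyes in 4 of 5 animals by 0.17 ± 0.08 (log2, SE; 95% interval -0.03 to 0.36; unadjusted p = 0.0826 in limma). Animal 65 alone gave 0.52, and without that animal the difference was 0.08. The unadjusted limma p of Tnmd was 0.0449 after median-of-ratios scaling and 0.0473 after quantile normalization (adjusted p = 0.998 and 0.999). With array weights the unadjusted limma p was 0.177. Prrx2 came next at -0.12 ± 0.15 (95% interval -0.48 to 0.24), lower in the right eye in 3 of 5 animals, and at -0.27 without animal 65. Mkx differed by 0.07 ± 0.10 (95% interval -0.17 to 0.32) and turned to -0.04 without animal 66. Prrx1 differed by -0.06 ± 0.07 (95% interval -0.22 to 0.10), the narrowest interval of the 8, lower in the right eye in 4 of 5 animals. That interval runs from 0.859-fold to 1.07-fold. Without animal 65, the animal with the opposite direction, Prrx1 stood at -0.13 (unadjusted p = 0.0300, adjusted p = 0.988 in limma).

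Foxc1 differed by -0.07 ± 0.09 (95% interval -0.28 to 0.15), Foxc2 by 0.03 ± 0.13 (-0.28 to 0.34), Twist1 by -0.06 ± 0.14 (-0.39 to 0.27) and Scx by -0.06 ± 0.19 (-0.51 to 0.39). The interval of Scx was the widest, reaching 0.704-fold and 1.31-fold. Without animal 68 the means of Foxc1, Twist1 and Scx lay on the other side of 0, at 0.01, 0.04 and 0.06, and 2 of the 8 genes were lower in right eyes in place of 5. For Twist2, which was not in the main test, a fit without the level filter gave -0.07 (adjusted p = 0.9999 in limma).

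**Figure D3:**
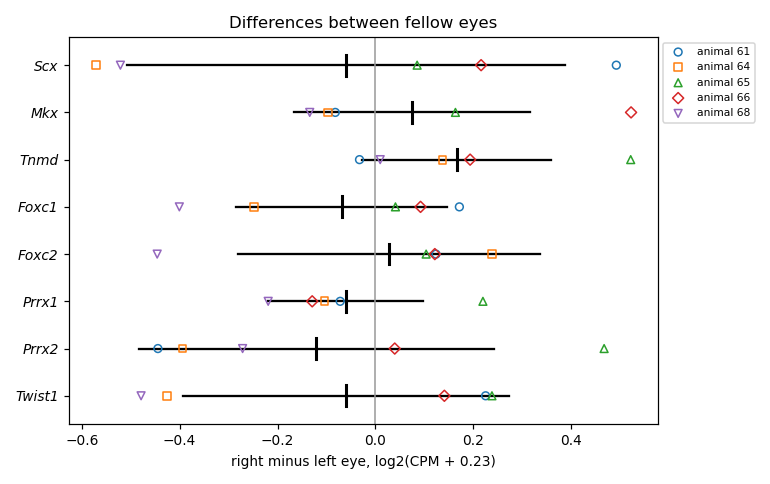
Right minus left eye difference of the 8 tested genes on the log2(CPM + 0.23) scale, with a symbol for each animal, a vertical bar at limma's estimate and a horizontal line for its 95% interval. All 8 intervals include 0; animal 68 gives the lowest value for Mkx, Foxc1, Foxc2, Twist1 and Prrx1, and the highest values of Tnmd, Prrx1 and Prrx2 come from animal 65.

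A second comparison asked whether levels differed between animals by more than between fellow eyes. In limma's F test of the animal terms 0 of the 8 genes passed an adjusted p of 0.05, beside 13 of 15414 genes (0.0843%). Those 13 included 4 genes on chromosome Y and 3 on chromosome X. At an unadjusted p under 0.05 there were 2 of the 8, beside 7.22% of all genes. Of the 8 tested members Foxc2 had the widest spread, with animal means 0.82 apart from animal 61 to animal 68 (unadjusted p = 0.0153, adjusted p = 0.555 in limma). Foxc1 spread by 0.59 between the same animals (unadjusted p = 0.0417, adjusted p = 0.657 in limma). Without animal 61 these unadjusted limma p were 0.0652 and 0.0999.

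For Prrx1 the animal means were 0.34 apart (unadjusted p = 0.0559 in limma), for Prrx2 0.79 (0.0878), for Mkx 0.45 (0.109), for Twist1 0.53 (0.200), for Scx 0.50 (0.480) and for Tnmd 0.22 (0.508). None passed after adjustment (adjusted p of 0.689 to 0.841 in limma). Animal 61 had the highest mean for Foxc1, Foxc2, Prrx1, Twist1 and Mkx, and animal 66 for Scx, Prrx2 and Twist2. Twist2, which was not tested, had animal means 0.92 apart, from animal 66 to animal 64. Tnmd had its highest mean in animal 68, the animal with the lowest mean of Foxc1, Foxc2 and Prrx2.

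The right eye of animal 68 was the lowest of the 10 libraries for Scx, Foxc1, Foxc2, Twist1 and Prrx2, that is 5 of 9 genes, and for 19.0% of all tested genes. Its deviation from the gene mean was -0.61 for Foxc2 and Prrx2, -0.52 for Foxc1, -0.43 for Twist1, -0.36 for Scx and -0.25 for Prrx1. In the same library Tnmd stood at 0.14, Mkx at 0.06 and Twist2 at 0.19 above their means. The median of the 12 fibroblast and matrix genes was at -0.01 there and their sum, 12334 CPM, was inside the range of the others, while the 8 endothelial genes were at -0.27 and the 8 rod genes at 2.34. Low values there were not particular to the members: 9653 of all 15414 tested genes were below their means. So were 29 of 31 other periocular transcription factors (median -0.21), 7 of 7 helix-loop-helix partners and inhibitors and 10 of 10 genes of TGF-beta and BMP signalling. The same held for 8 of 8 melanocyte genes (median -0.25) and 9 of 9 pericyte and smooth muscle genes. Of 19 tendon and ligament fibroblast genes 10 were below their means (median -0.03). The part of retinal RNA in the low values of that library was not tested.

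The left eye of animal 65, with the next highest rod level, was the lowest library for Tnmd and Prrx1 (2 of 9, and 16.6% of all tested genes). All 8 transcription factors and Tnmd were below their means there, by 0.05 (Foxc1) to 0.38 (Twist1), as were 9440 of all 15414 tested genes. The fibroblast and matrix genes were low as well (median -0.25, sum 9784 CPM, the lowest of all). The part of either list in these low values was not tested. The right eye of animal 61, with the least rod RNA, was the highest library for Foxc1, Foxc2 and Twist1 (3 of 9, and 11.9% of all tested genes). The left eye of animal 61 was the highest for Mkx, Prrx1 and Prrx2 (3 of 9, and 10.1% of all tested genes). The part of rod RNA in these high values was not tested either.

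**Figure D4:**
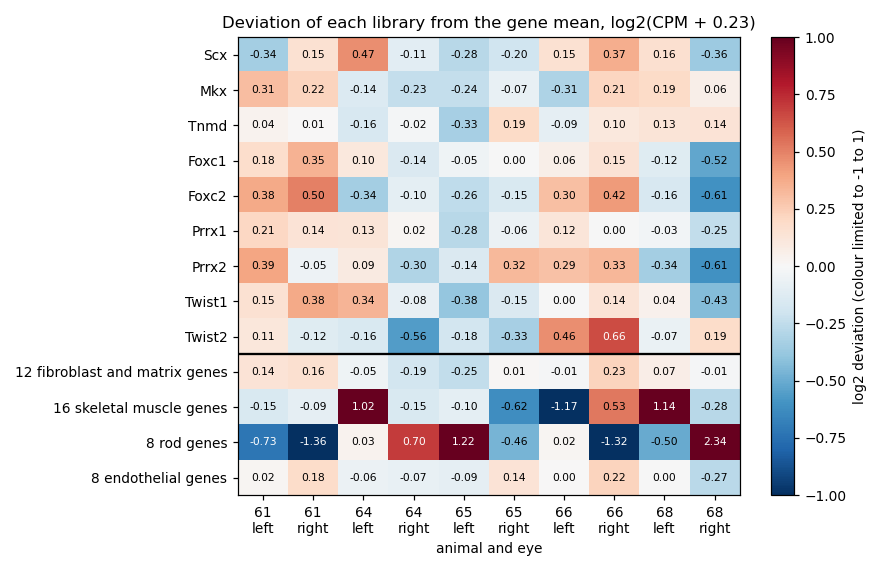
Deviation of each library from the gene's mean on the log2(CPM + 0.23) scale, for the 9 genes and, below the line, as the median over 4 lists of marker genes, libraries ordered by animal and eye. In the right eye of animal 68, Foxc1, Foxc2, Prrx2, Twist1, Scx and Prrx1 are negative while Tnmd, Mkx and Twist2 are positive and rod genes reach 2.34.

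Other genes of the same programmes were described from lists chosen with earlier results of these data known. Of 39 further transcription factors of periocular mesenchyme, 31 had a mean of at least 1 CPM and 0 passed the test of the eyes (13 higher and 18 lower in right eyes, median -0.02). Among their most abundant members were Zeb2 (120 ± 4.73 CPM in left and 124 ± 13.3 in right eyes, SD, n = 5 each) and Zeb1 (45.4 ± 1.72 and 47.2 ± 2.45 CPM), zinc finger factors of mesenchymal identity. Of 20 genes of tendon and ligament fibroblasts 19 were tested and 0 passed (12 higher, 7 lower, median 0.02). They were led by the fibril-associated collagen Col12a1 (1685 ± 223 and 1868 ± 149 CPM), by Angptl7 (409 ± 198 and 401 ± 169 CPM) and by the collagen-binding proteoglycan Fmod (389 ± 40.03 and 412 ± 34.0 CPM).

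Helix-loop-helix proteins act in pairs, and partners of TWIST and SCX were present. Of 13 such partners and inhibitors 7 were tested and 0 passed (2 higher, 5 lower, median -0.02). Tcf4 (154 ± 5.79 CPM in left and 153 ± 5.77 in right eyes) and Tcf12 (70.2 ± 1.51 and 69.1 ± 3.42 CPM) encode E-proteins, the usual partners, and Id3 (48.4 ± 11.1 and 44.7 ± 6.29 CPM) encodes an inhibitor that lacks a DNA-binding region. TGF-beta signalling induces Scx in tendon cells. Of 15 genes of TGF-beta, BMP, GDF and FGF signalling 10 were tested, Bmp4 among them, and 0 passed (6 higher, 4 lower, median 0.02). They were led by the ligand Tgfb3 (132 ± 22.4 and 146 ± 25.7 CPM), the receptor Tgfbr2 (95.6 ± 6.41 and 96.6 ± 10.2 CPM) and Smad3 (46.4 ± 4.78 and 47.0 ± 3.38 CPM), which carries the TGF-beta signal to the nucleus. In the test between animals 0 genes of these 4 lists passed.

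For each member the 2 genes with the most similar profile were sought among 13058 tested genes with a symbol of their own. The measure was the share of the member's variation over the 10 libraries that was left after the other gene's log2 profile was subtracted, so a low share means a close match, and so many candidates give close matches readily. Foxc1 was matched by Xpc, a DNA repair gene (7.34% left), and Procr, the endothelial protein C receptor (9.69%), both lowest in the right eye of animal 68 and highest in the right eye of animal 61. Mkx was matched by Cd34, a surface marker of stromal and endothelial cells (9.43%), and by Col16a1, a fibril-associated collagen (15.6%), both lowest in the right eye of animal 64 and highest in the left eye of animal 61. Prrx1 was matched by Trabd (9.43%) and Scpep1 (11.3%).

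Foxc2 was matched by Sertad4 (13.5%) and Rflna (14.9%), Twist1 by Pdlim2 (13.1%) and Spaar (15.5%), and Prrx2 by Mmp3, a matrix metalloproteinase (14.4%), and Pianp (21.3%). The remaining members had looser matches: Tnmd to Amd-ps3 (17.5%) and to P4ha1, a collagen prolyl hydroxylase subunit (21.5%), Scx to Nudt8 (18.1%) and Tcea3 (27.0%), and Twist2 to Hba-a1 (21.8%), a globin gene with a near-identical copy whose reads are uncertain, and Ssc5d (24.1%). Among the members themselves the nearest were Prrx1 subtracted from Twist1, which left 32.0%, Foxc1 from Twist1 (35.2%) and Foxc1 from Foxc2 (36.9%). The measure runs one way: Twist1 subtracted from Prrx1 left 89.6%, Twist1 from Foxc1 47.1% and Foxc2 from Foxc1 94.1%. The nearest members were picked from far fewer genes than the outside matches, so shares inside and outside the set cannot be compared. All these shares come from the same 10 libraries of 5 animals and are descriptions without a test.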

How the data were processed

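RNA of 10 libraries (1 µg total RNA each) was sequenced after ribosomal RNA removal with a stranded total RNA kit, per the labels' protocols. STAR, Partek and the GRCm38/mm10 genome are named in the submitters' processing notes, with no version, annotation or strand setting stated. The authors deposited CPM per gene with 0.0001 added, which was subtracted. The 26360 listed genes held 42.7% to 47.1% of each library's total, and 1 read was worth 0.0106 to 0.0150 CPM. Of low values 89.1% to 90.1% came out as whole reads (within 0.05 of a step), too few for a count test. A count of 0 allows up to 0.0319 to 0.0449 CPM (3 reads, counting error only). Gene models were taken from GENCODE M21, which matched 25737 of the genes.

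The 15414 genes averaging 1 CPM or more were fitted in limma 3.58.1 (R 4.3.3) on log2(CPM + 0.2302), with terms for eye side and animal, a trend in the variance and Benjamini-Hochberg adjustment over all genes (threshold 0.05, 4 residual degrees of freedom), and animals were compared by the F test of their terms. The script was tested on simulated data. Folds on this scale are too small for genes of low level. Fellow eyes share an animal number in their titles, which is where the pairing comes from, and the deviations of fellow eyes correlated above 0.1 in 2 of 5 animals (0.27 and 0.11, the others -0.19 to 0.05). Alternatives were scalings, pseudocounts, filters, weights, no animal block and leaving out each animal or eye. All members are named; of each related list the 3 most abundant tested genes are named (1 of them is not reported here), and for each member the 2 genes of most similar profile. The rule for the members uses no measured value, but the members and lists were proposed and chosen with earlier results of these data known.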

Additional observations from a re-analysis of the deposited data

How the results depend on the processing

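Under 26 alternatives 0 genes passed the test of the eyes, also without the replicate block (0 genes), and the replicate block changed no call. These alternatives are not independent: leaving out an eye gave the members the same right minus left differences as leaving out its animal. Unadjusted p under 0.05 was reached by 266 of 10384 genes with the filter of 5 CPM and by 861 of 26360 without a filter. Under the other alternatives, each with 15414 genes tested, it was reached by 331 to 589 genes. Tnmd, Prrx1 and Prrx2 kept their direction throughout, with Tnmd at 0.08 to 0.22, Prrx1 at -0.13 to -0.021 and Prrx2 at -0.27 to -0.040 when animals or eyes were left out. Other members, never past the threshold, changed sign. Scx stood at 0.0057 after quantile normalization and at 0.033 with array weights. With animals or eyes left out, Scx ranged from -0.20 to 0.068, Mkx from -0.037 to 0.13, Foxc1 from -0.13 to 0.014, Foxc2 from -0.024 to 0.15 and Twist1 from -0.13 to 0.044. The number of members lower in right eyes, 5 of 8, was 2 of 8 without animal 68 and 6 of 8 without animal 66. Between animals 13 genes passed, 20 with array weights and 5 to 11 with animals or eyes left out (5 without animal 61). No member passed in any of these (smallest adjusted p = 0.289 in limma, for Foxc2 without the left eye of animal 68). With the longest transcript as length, Prrx1 stood at 8.50 and Prrx2 at 1.79 CPM per kb, because these genes have several transcripts. Under the filter of 5 CPM, Scx, Foxc2, Twist1 and Prrx2 have no value. Depth limits Twist2 and Scx most, at 36.9 to 130 and 83.8 to 175 implied reads.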
